A study of Mus musculus with 20 samples.

Results

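JMJD3, encoded by Kdm6b, was mapped by ChIP-seq in mouse embryonic fibroblasts (MEFs) on day 5 of reprogramming. Of its 14067 listed positions, 1197 had no KLF4 peak midpoint within 400 bp and were listed again when less KLF4 was supplied. A position was a member when no midpoint of a KLF4 peak lay within 400 bp in either of the 2 KLF4 lists and a position of the low-KLF4 JMJD3 list lay within 400 bp. The members were thus chosen by the peak lists themselves, so the absence of KLF4 and the presence in the low-KLF4 list are descriptions and not findings. Of all positions, 64.0% had no KLF4 midpoint within 400 bp and 12.9% had a low-KLF4 position within 400 bp, and nothing about the members is read from these shares.

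The wild-type (Jmjd3+/+) MEFs were of strain C57BL/6J-OG2 and received retroviral OCT4, SOX2, KLF4 and c-MYC (OSKM) together with JMJD3 carrying 3 FLAG tags in a row, in medium with vitamin C. In the low-KLF4 cells (OSlowKM) the KLF4 virus was given at 1 part in 5 of its volume, with all else as in OSKM. Anti-FLAG ChIP therefore read overexpressed, tagged JMJD3 and not the endogenous protein. KLF4 itself was mapped on day 5 in wild-type OSKM cells with FLAG alone or with JMJD3, so no KLF4 map of the low-KLF4 cells entered the rule. The 10 H3K27me3 lists came from wild-type and Jmjd3-/- (strain C57Bl6J) MEFs, and from OSKM cells of both genotypes on days 5 and 10 with FLAG or JMJD3. Each group was 1 library, so no difference between conditions has a replicate check and no p-value is given. All intervals are 95% intervals for shares of positions (Wilson, and Newcombe for differences), treat positions as independent, and cover counting error only.

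JMJD3 is a histone demethylase that removes methyl groups from H3K27me3, the repressive mark laid down by the Polycomb repressive complex. Other proteins, transcription factors among them, bring it to its sites on DNA. KLF4 is a zinc-finger factor that binds GC-rich CACCC-type elements. AP-1 factors are FOS and JUN dimers that occupy enhancers of fibroblasts, while OCT4 and SOX2 bind a composite element found at many pluripotency enhancers. RE1 is the long element bound by REST, a repressor that keeps neuronal genes silent outside neurons.

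Windows of 200 bp centred on the members are shown next because they hold the motifs that the results turn on. All are from mm10 (GRCm38.p6), plus strand, 5′ to 3′, with motif matches in capitals. The first 9 belong to listed genes with a member within 50 kb. The 12 such windows with the nearest low-KLF4 position were taken, after the exclusions given in the methods, and the 9 of them that held an AP-1, SOX, OCT or RE1 match are shown. The capitals mark AP-1 in Zfp42 and Acta2, SOX in Wnt5b, OCT in Trp53, Sox21 and Rb1, AP-1 and OCT in Map4k4, RE1 in Junb, and OCT with a pair of RE1 matches in Lin28a. The Zfp42 (chr8:43264730-43264929), Sox21 (chr14:118230288-118230487) and Lin28a (chr4:134020687-134020886) windows are intergenic. The Wnt5b window (chr6:119418938-119419137) is also intergenic and lies 1334 bp from the nearer start of Adipor2. The Trp53 (chr11:69581986-69582185), Acta2 (chr19:34255079-34255278), Rb1 (chr14:73314114-73314313) and Map4k4 (chr1:39902749-39902948) windows are in introns of those genes. The Junb window (chr8:84947241-84947440) is in an intron of Rtbdn.
Zfp42: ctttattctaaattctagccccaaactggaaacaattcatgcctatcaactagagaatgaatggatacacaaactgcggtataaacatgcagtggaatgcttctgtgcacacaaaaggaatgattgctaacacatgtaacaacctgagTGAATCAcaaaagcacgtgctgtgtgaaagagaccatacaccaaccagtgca
Wnt5b: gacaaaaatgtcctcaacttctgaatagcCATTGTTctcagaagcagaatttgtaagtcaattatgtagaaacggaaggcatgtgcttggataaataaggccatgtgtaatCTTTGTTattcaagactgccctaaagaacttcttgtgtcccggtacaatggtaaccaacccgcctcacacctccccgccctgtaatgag
Junb: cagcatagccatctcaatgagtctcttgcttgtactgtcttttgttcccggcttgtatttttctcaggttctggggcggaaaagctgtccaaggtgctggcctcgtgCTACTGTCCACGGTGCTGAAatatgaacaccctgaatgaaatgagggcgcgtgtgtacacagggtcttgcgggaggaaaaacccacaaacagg
Trp53: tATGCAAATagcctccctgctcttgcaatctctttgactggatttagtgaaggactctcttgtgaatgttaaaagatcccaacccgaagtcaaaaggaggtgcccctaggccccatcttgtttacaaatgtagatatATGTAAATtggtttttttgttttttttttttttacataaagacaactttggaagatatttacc
Acta2: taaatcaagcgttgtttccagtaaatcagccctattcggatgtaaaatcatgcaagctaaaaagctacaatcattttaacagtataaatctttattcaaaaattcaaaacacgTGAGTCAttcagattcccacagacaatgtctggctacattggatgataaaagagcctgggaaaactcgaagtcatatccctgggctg
Sox21: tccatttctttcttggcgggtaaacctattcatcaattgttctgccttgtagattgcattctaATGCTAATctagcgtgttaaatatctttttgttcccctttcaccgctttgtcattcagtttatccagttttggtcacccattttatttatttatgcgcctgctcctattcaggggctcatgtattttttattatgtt
Rb1: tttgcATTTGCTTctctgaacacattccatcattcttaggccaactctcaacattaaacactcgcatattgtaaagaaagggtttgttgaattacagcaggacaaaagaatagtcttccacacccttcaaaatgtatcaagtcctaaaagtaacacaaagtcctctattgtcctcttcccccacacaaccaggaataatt
Lin28a: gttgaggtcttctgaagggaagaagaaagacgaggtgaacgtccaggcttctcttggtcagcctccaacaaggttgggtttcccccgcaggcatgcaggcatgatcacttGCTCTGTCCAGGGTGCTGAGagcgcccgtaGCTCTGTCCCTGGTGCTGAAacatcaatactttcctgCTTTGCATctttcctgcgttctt
Map4k4: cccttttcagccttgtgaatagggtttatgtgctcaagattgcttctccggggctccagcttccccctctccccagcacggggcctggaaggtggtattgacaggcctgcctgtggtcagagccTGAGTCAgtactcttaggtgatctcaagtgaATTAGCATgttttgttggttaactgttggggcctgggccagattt

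A further set shows RE1, a class of member that was singled out after its values were seen. The capitals mark 3 RE1 matches in the Npas4 intron (chr19:4989087-4989286), 1 in the Snap25 intron (chr2:136714196-136714395) and a pair in a coding exon of Iqsec3 (chr6:121473141-121473340). The last window, 187063 bp from the start of Sulf1 (chr1:12505114-12505313), shows a tandem repeat with its GGATAGGA unit in capitals.
Npas4: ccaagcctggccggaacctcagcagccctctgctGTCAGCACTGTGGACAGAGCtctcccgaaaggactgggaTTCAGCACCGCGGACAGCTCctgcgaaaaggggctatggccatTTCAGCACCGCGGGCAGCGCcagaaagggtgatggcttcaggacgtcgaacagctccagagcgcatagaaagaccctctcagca
Snap25: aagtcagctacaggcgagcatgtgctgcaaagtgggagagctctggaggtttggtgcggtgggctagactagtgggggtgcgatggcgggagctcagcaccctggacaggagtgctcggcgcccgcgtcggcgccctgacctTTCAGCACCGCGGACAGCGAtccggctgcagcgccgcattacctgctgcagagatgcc
Iqsec3: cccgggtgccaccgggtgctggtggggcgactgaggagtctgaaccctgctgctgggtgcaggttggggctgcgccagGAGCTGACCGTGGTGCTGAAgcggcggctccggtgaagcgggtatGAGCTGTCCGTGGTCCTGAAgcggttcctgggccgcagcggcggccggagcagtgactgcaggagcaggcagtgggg
Sulf1: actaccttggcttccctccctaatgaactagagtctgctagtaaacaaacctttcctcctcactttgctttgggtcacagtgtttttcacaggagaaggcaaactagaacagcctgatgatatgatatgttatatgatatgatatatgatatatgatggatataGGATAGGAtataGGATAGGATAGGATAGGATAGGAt

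The members' positions in the OSKM and low-KLF4 lists lay close together. The median distance to the low-KLF4 position was 46 bp, with quartiles of 20 and 85 bp and a highest value of 397 bp. Of the 1197 members, 655 (54.7%) were within 50 bp, 964 (80.5%) within 100 bp, and 7 were at the same base. Most members were thus far inside the 400 bp limit. The members farthest from a low-KLF4 position but still within it included Cdh13 at 397 bp, while the nearest position beyond it, by H3f3b at 402 bp, was left out.

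KLF4 was distant from most members. The median distance to a KLF4 midpoint was 85638 bp in FLAG cells and 58363 bp in JMJD3 cells. For KLF4-free positions absent from the low-KLF4 list the medians were 67635 and 48369 bp. The rule set a lower limit on this distance in both groups. A KLF4 midpoint lay beyond the limit but within 1000 bp of 111 members. The member nearest the KLF4 limit, by Rai14, was 401 bp from a midpoint, and a position by Frmd8 at 399 bp was left out.

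The lists differed in length, and this bears on every comparison of kept with lost positions. The OSKM JMJD3 list held 14067 positions and the low-KLF4 list 2284, of which 1809 (79.2%) had an OSKM position within 400 bp. Neither list gives a height, a score or a read count. A position lost because KLF4 was lower and one missed because the library was weaker or called more strictly cannot be told apart. Whether the members were the stronger KLF4-free peaks was not tested, since the lists hold no measure of strength. The 7803 KLF4-free positions absent from the low-KLF4 list are called lost below, the 617 positions near KLF4 and listed again are called near-KLF4 kept, and both serve only for comparison.

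The members were mostly distal. The median distance to the nearest transcription start site (TSS) of any gene was 16701 bp, against 13335 bp for lost and 1145 bp for near-KLF4 kept positions. Of the members, 372 (31.1%, 28.5 to 33.8) lay within 5 kb of a TSS, where 42.1% of all JMJD3 positions did. The share was 34.0% among lost positions, a difference of -2.95 percentage points (-5.72 to -0.0729), and 59.3% among near-KLF4 kept positions, a difference of -28.2 points (-32.8 to -23.5). The contrast with near-KLF4 kept positions was therefore large, and that with lost positions was at the edge of counting error. Counting only TSSs within 1 kb, 234 members (19.5%) qualified against 30.3% of all positions, and the difference from lost positions was -1.53 points (-3.87 to 0.973). With a joining distance of 1000 bp in place of 400 bp, the 5 kb difference was -0.442 points (-3.18 to 2.42). With 200 bp it was -5.60 points (-8.39 to -2.73), and with protein-coding TSSs alone -3.90 points (-6.37 to -1.27).

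By annotation, 541 members (45.2%) were intergenic and 483 (40.4%) were in introns of protein-coding genes, where the shares of all positions were 36.2% and 44.4%. Lost positions were intergenic in 39.4% and intronic in 45.9%. Members were thus intergenic more often by 5.75 points (2.75 to 8.78) and intronic less often by 5.57 points, a difference of -5.57 (-8.53 to -2.55). Another 37 members (3.09%) were in coding exons, 51 (4.26%) in non-coding parts of exons and 85 (7.10%) in other gene types. The member windows had a median GC content of 41.0% and 2 CpG sites, as against 42.0% GC for lost and 62.0% for near-KLF4 kept positions. Members were spread singly, since 3 had another member before them within 1 kb and 16 within 10 kb.

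**Figure D1:**
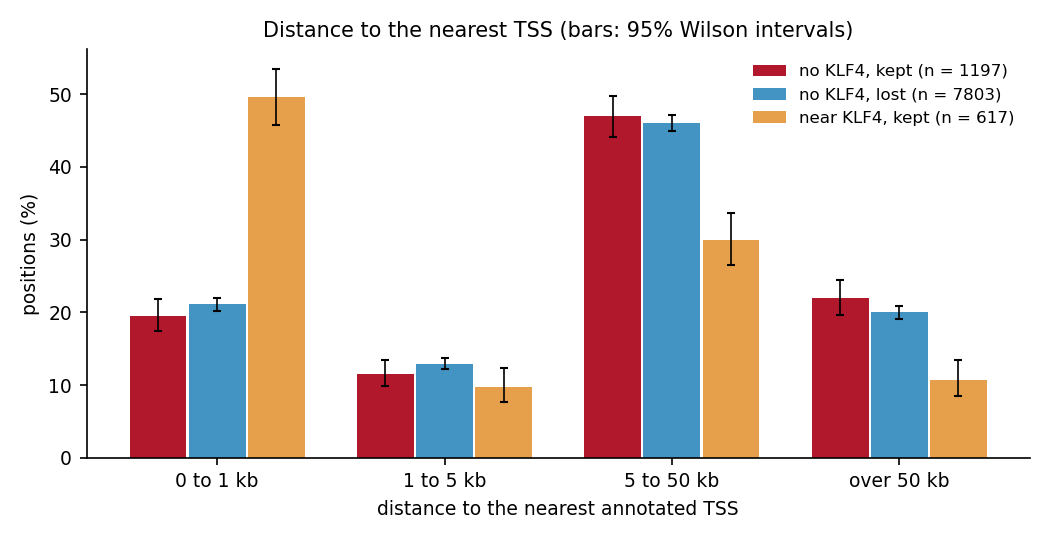
Percent of members, lost positions and near-KLF4 kept positions in each class of distance to the nearest TSS, with 95% Wilson intervals as error bars. Members and lost positions have similar heights, at 19.5% and 21.1% within 1 kb and 47.0% and 46.0% at 5 to 50 kb. Of near-KLF4 kept positions, 49.6% are within 1 kb.

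Of the AP-1, SOX and OCT motifs, AP-1 alone differed between members and lost positions by more than counting error. TGANTCA was present in 225 members (18.8%, 16.7 to 21.1), where 11.4% of all positions held it. It was present in 12.2% of lost positions, a difference of 6.61 points (4.37 to 9.03), in 11.0% of near-KLF4 kept positions, and in 6.77% of 2394 windows 2 kb to either side of the members. The AP-1 difference kept its sign beyond counting error among members over 5 kb from a TSS (22.7% against 14.7%, 7.92 points, 5.02 to 11.0) and within 5 kb of one (10.2% against 7.23%, 2.98 points, 0.104 to 6.60). Against near-KLF4 kept positions over 5 kb from a TSS, however, AP-1 was at 22.7% and 20.7%, a difference of 1.95 points (-4.13 to 7.39).

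AP-1 was denser around the member positions than farther out, over a broad region. Within 50 bp of the centre, AP-1 was 4.20 times as dense as at 300 to 479 bp from it, against 2.26 times for lost positions. In windows with a match the median distance from the centre was alike, at 42.0 bp in members and 44.0 bp in lost positions. Of the 225 members with a match, 163 (72.4%) held TGACTCA and 74 (32.9%) TGAATCA, and 31 (13.8%) held more than 1 copy. In lost windows with a match these shares were 65.8%, 37.6% and 8.10%. The 225 were also farther from promoters than the other members, with 38 (16.9%) within 5 kb of a TSS against 34.4% of members without AP-1, a difference of -17.5 points (-22.8 to -11.3). The same held for members with OCT, at 17.8% against 39.7% without it, and with SOX, at 22.8% against 33.3%.

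The SOX motifs AACAAAG and AACAATG and the OCT motif ATGCAAAT differed from lost positions by less than counting error. SOX was present in 250 members (20.9%, 18.7 to 23.3), in 18.7% of all positions and in 21.7% of lost positions, a difference of -0.798 points (-3.19 to 1.76). OCT, with up to 1 mismatch, was present in 471 members (39.3%, 36.6 to 42.1), in 31.3% of all positions and in 37.4% of lost positions, a difference of 1.90 points (-1.03 to 4.90). With a joining distance of 200 bp the OCT difference was 3.90 points (1.03 to 6.83) and that of SOX 0.316 points (-2.01 to 2.81), so that OCT then exceeded counting error and SOX changed sign. Both were above the flanks, which held SOX in 9.57% and OCT in 23.9%. The exact octamer was present in 65 members (5.43%), where 3.81% of all positions held it, and differed from lost positions by 0.727 points (-0.521 to 2.23).

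The composite element, in which OCT and SOX sites stand side by side, differed between members and lost positions. OCT-SOX, searched with up to 3 mismatches, was present in 212 members (17.7%, 15.7 to 20.0), in 11.9% of all positions, in 13.7% of lost positions and in 3.26% of the flanks. The difference from lost positions was 4.01 points (1.81 to 6.40), with 4.83 points (1.93 to 7.95) over 5 kb from a TSS and 1.21 points (-1.36 to 4.55) within 5 kb of one. Near-KLF4 kept positions held it in 11.3%, but over 5 kb from a TSS they held it in 23.1% against 22.1% of members, a difference of -1.05 points (-7.26 to 4.58).

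**Figure D2:**
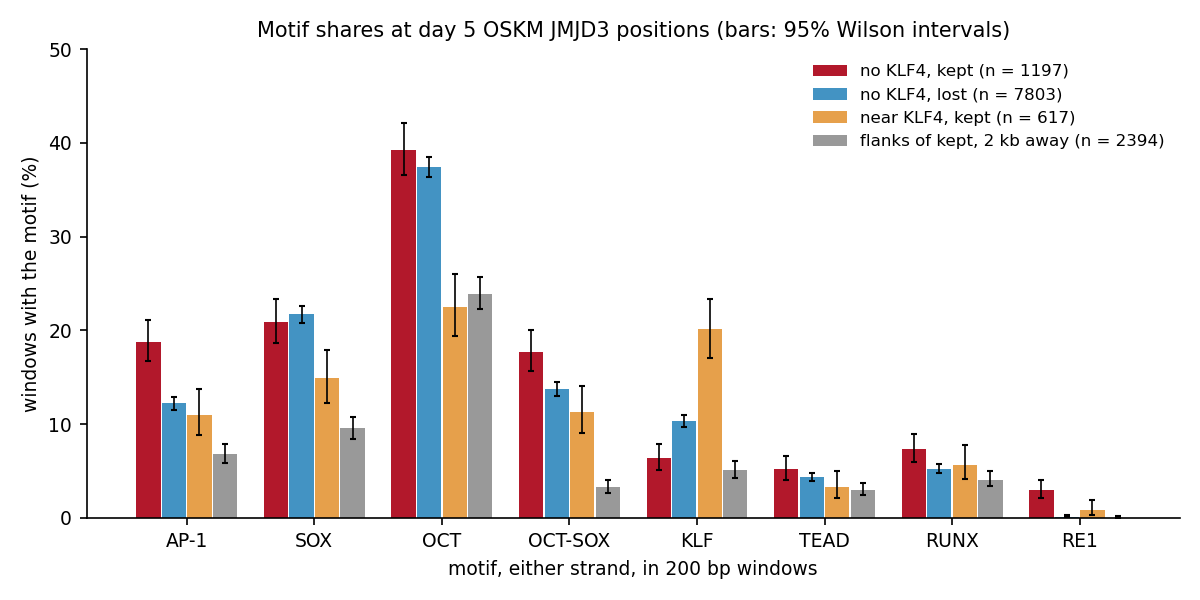
Percent of 200 bp windows holding each motif in members, lost positions, near-KLF4 kept positions and windows 2 kb beside the members, with 95% Wilson intervals as bars. AP-1 reached 18.8% in members and 12.2% in lost positions, while SOX was at 20.9% and 21.7%.

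Windows were also counted by the motifs they held together. AP-1 with OCT was present in 108 members (9.02%) and 4.97% of lost positions, a difference of 4.05 points (2.47 to 5.87). Near-KLF4 kept positions held both in 3.73%. Over 5 kb from a TSS, however, they held both in 7.97% against 11.0% of members, a difference of 3.06 points (-1.41 to 6.66). AP-1 with SOX was present in 60 members (5.01%) and 2.90% of lost positions, while SOX with OCT was at 9.11% and 9.20%. AP-1 with neither SOX nor OCT was present in 80 members (6.68%) and 5.36% of lost positions, a difference of 1.33 points (-0.0565 to 2.96). At least 1 of AP-1, SOX and OCT was present in 692 members (57.8%) and 55.3% of lost positions, an interval of -0.501 to 5.51 points for the difference. All 3 were present in 23 members (1.92%) against 1.04%. The 8 of these with the nearest low-KLF4 position had as nearest protein-coding genes Uvrag, an autophagy gene, at 47098 bp, Nr3c2, the mineralocorticoid receptor, at 519324 bp, Cdh18 at 408592 bp, Arpp21 at 148307 bp, Adam28 at 65430 bp, Kcnj16 at 86579 bp, Camk2d at 74517 bp and Slc22a3 at 4930 bp from the TSS. Of them only the Slc22a3 position had an H3K27me3 peak within 10 kb.

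The KLF motif was sparse in the members. GGGTGTG or GGGCGTG was present in 76 members (6.35%), in 16.1% of all positions, in 10.3% of lost positions and in 5.10% of the flanks. The difference from lost positions, which also had no KLF4 midpoint within 400 bp, was -3.99 points (-5.42 to -2.33). Among near-KLF4 kept positions the share was 20.1%, but that class was defined by KLF4 peaks. The RUNX motif TGTGGTT was present in 88 members (7.35%) where 5.16% of all positions held it, 2.10 points (0.655 to 3.78) above lost positions, and 1.78 points (-0.0171 to 3.93) over 5 kb from a TSS. The TEAD motif ACATTCC, at 5.18% of members and 4.07% of all positions, and the E-box CACGTG, at 1.09% and 2.06%, differed from lost positions by 0.874 points (-0.341 to 2.34) and -0.388 points (-0.925 to 0.414).

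**Figure D3:**
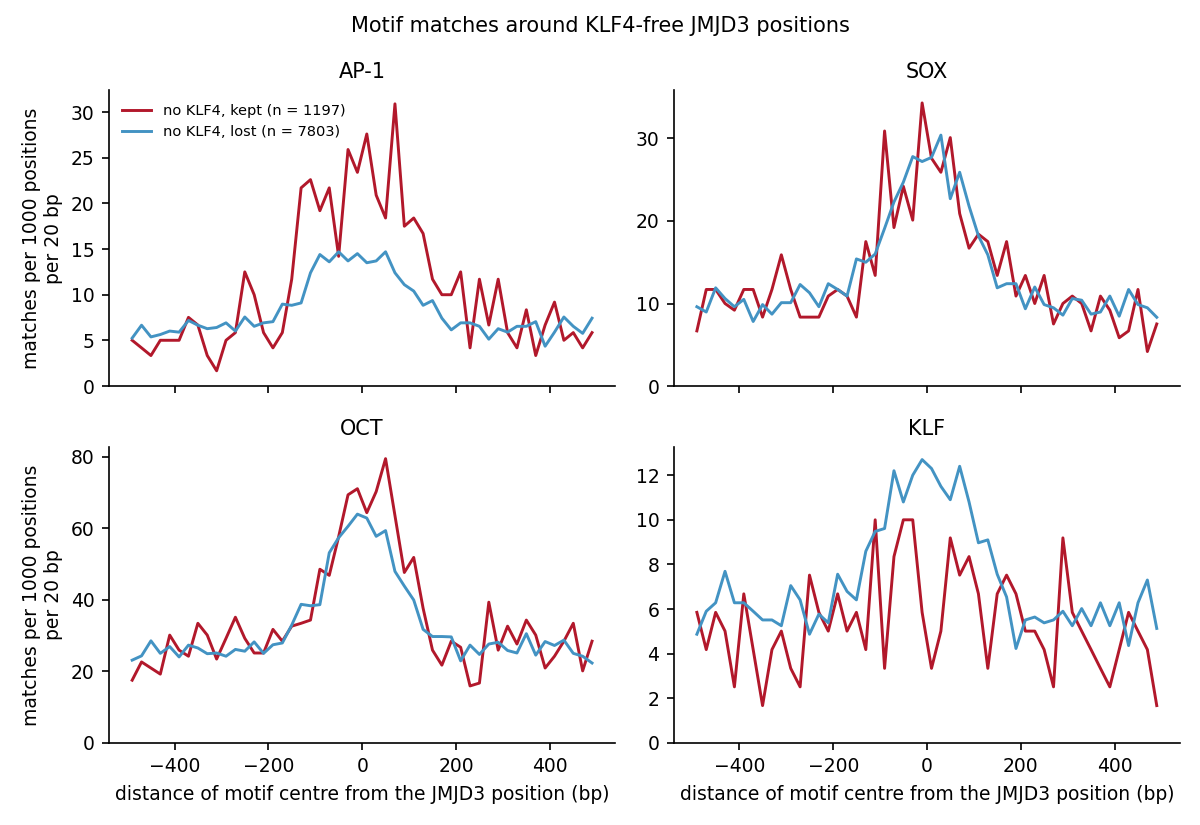
Matches of AP-1, SOX, OCT and KLF per 1000 positions in bins of 20 bp, by distance in bp from the JMJD3 position, for members (kept) and lost positions. The AP-1 line of members rises above that of lost positions near 0, where density was 4.20 times that of the flanks of the plot against 2.26 times, and the SOX lines overlap.

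RE1 was rare but had the largest relative difference from lost positions of the motifs named here. The element, TTCAGCACCNNGGACAGCGC searched with up to 3 mismatches, was chosen after windows such as that of Npas4 had been seen, so its values are a description. It was present in 35 members (2.92%, 2.11 to 4.04), in 0.391% of all positions, and in 11 of the 7803 lost positions (0.141%, 0.0787 to 0.252). Near-KLF4 kept positions held it in 0.810%, a difference of 2.11 points (0.767 to 3.32). None of the 2394 flanking windows held it, which allows a share of up to 0.160%. With up to 4 mismatches the counts were 43 members (3.59%) and 26 lost positions (0.333%). The matches had a median distance of 17.0 bp from the window centre, and 28 of the 35 members were within 50 bp of the low-KLF4 position. Of the 35, 6 also held OCT, 2 AP-1 and 1 SOX. Their median GC content was 56.0%.

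The genes nearest to RE1 members are named with their values already seen, and no enrichment of any gene class was tested. The 9 members within 1 kb of a protein-coding TSS were by Gm20715 (17 bp), Glra1 (117 bp), L1cam (279 bp), Golga7b (288 bp), Rtbdn (350 bp), Iqsec3 (437 bp), Xkr7 (542 bp), Dlgap3 (808 bp) and Snap25 (818 bp). Glra1 encodes a glycine receptor subunit, L1cam a neural adhesion molecule, Dlgap3 a postsynaptic scaffold and Snap25 a SNARE protein of synaptic vesicle fusion. The functions of the other genes named here were not compiled, so these examples do not describe the RE1 members as a class. The other 26 members, from 1035 to 261857 bp away, were nearest to Gprin1, Npas4, Vstm2l, Lin28a, Tas1r3, Swsap1, Lypd5, A230050P20Rik, Igsf21, Erich1, Zfp473, Kcnk9, Phf21b, C1qa, Slc2a8, Disp3, Lhx2, Xkr6, Kif13b, Celf4, Engase, Mroh5, Camta1 and Gjb5, with a pair of members each at Kcnk9 and Xkr6.

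Tandem repeats formed another small class, likewise chosen after the data were seen. GGATAGGA was present in 46 members (3.84%, 2.89 to 5.09), in 0.633% of all positions and in 33 lost positions (0.423%). AGGTTAGG was present in 28 members (2.34%), in 0.611% of all positions and in 0.487% of lost positions. Together they covered 73 members, of which 26 were over 50% repeat-masked and 4 held AP-1. Reads from tandem repeats can map to more than 1 place, and how the repeats bear on these peaks was not tested. Over all members, 87 windows (7.27%) were over 50% repeat-masked against 8.50% of lost windows.

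The low-KLF4 list also held 403 KLF4-free positions with no OSKM position within 400 bp, which the rule leaves out. AP-1 was present in 104 of these (25.8%), OCT in 28.8%, SOX in 15.6% and RE1 in 12 (2.98%). Their AP-1 share was above the 18.8% of members, while GGATAGGA, at 0.744%, was below the 3.84% of members.

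H3K27me3 peaks were far from most members. The median distance to a peak of the day 5 wild-type FLAG list was 267563 bp, and 240460 bp for lost positions. Of the members, 60 (5.01%) had such a peak within 10 kb against 5.18% of all positions and 4.74% of lost positions, a difference of 0.271 points (-0.934 to 1.73) that became -0.643 points (-1.74 to 0.722) without windows that held RE1 with up to 4 mismatches. With JMJD3 in place of FLAG in the same cells, 42 members (3.51%) had one against 2.70% of all positions and 2.28% of lost positions, a difference of 1.23 points (0.258 to 2.47). This difference was 0.253 points (-0.567 to 1.35) without the same windows, and 0.493 points (-0.269 to 1.65) over 5 kb from a TSS.

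In MEFs the members near H3K27me3 numbered 67 (5.60%, with 6.58% of all positions) in wild type and 46 (3.84%, with 4.09%) in Jmjd3-/-. In day 5 Jmjd3-/- cells they numbered 61 with FLAG (5.10%, with 4.70% of all positions) and 48 with JMJD3 (4.01%, with 3.42%). On day 10 they numbered 45 with FLAG (3.76%, with 3.48%) and 30 with JMJD3 (2.51%, with 2.19%) in wild type, and 46 with FLAG (3.84%, with 3.68%) and 47 with JMJD3 (3.93%, with 3.11%) in Jmjd3-/-. In these 8 lists the interval of the difference from lost positions included 0. Among members within 5 kb of a TSS, 5 of the 10 lists gave a difference whose interval lay above 0, from 2.88 points (0.606 to 5.96) on day 10 in wild type with JMJD3 to 4.30 points (1.45 to 7.90) on day 10 in Jmjd3-/- with JMJD3. On day 5 in wild type with JMJD3 the shares were 7.53% of these members and 4.37% of lost positions. The lists were read at the same positions, so they do not count as repeats. How these differences stood without RE1 windows was not tested. In any of the 10 lists a peak lay within 10 kb of 128 members (10.7%, lost 10.4%), and in all 10 lists of 13 (1.09%, lost 0.782%).

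Between FLAG and JMJD3 the members near H3K27me3 went from 60 to 42 on day 5 in wild type, and 34 members were in both counts. The FLAG count thus held 26 members that the JMJD3 count did not, against 8 the other way. The ratio of 0.700 was read beside the ratio of the lengths of these lists, 0.788, and beside 0.481 for lost positions. In day 5 Jmjd3-/- cells the ratio was 0.787 for members and 0.743 for lost positions, where the list lengths had a ratio of 1.16. On day 10 the member ratio was above that of the list lengths in both genotypes, at 0.667 against 0.593 in wild type and 1.02 against 0.907 in Jmjd3-/-, with 0.604 and 0.867 for lost positions. With 1 library each, a change in the mark and a change in what was called cannot be told apart.

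**Figure D4:**
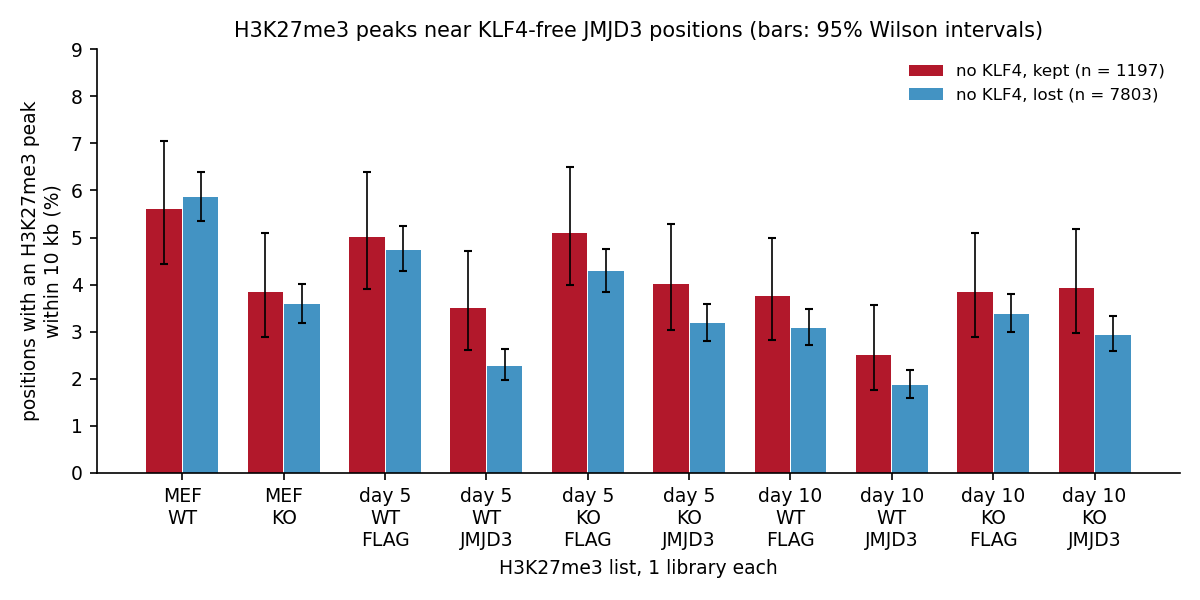
Percent of members (kept) and lost positions with an H3K27me3 peak within 10 kb in each of the 10 lists, 1 library each, with 95% Wilson intervals as error bars (WT, wild type, and KO, Jmjd3-/-). Members range from 2.51% (day 10 WT with JMJD3) to 5.60% (MEF WT), and in each list their interval overlaps that of lost positions.

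RE1 members were more often near H3K27me3 than the other members, a description only, since RE1 was picked after windows such as that of Npas4, itself within 1 kb of H3K27me3, had been seen. In the day 5 wild-type FLAG list, 11 of 35 (31.4%) had a peak within 10 kb against 49 of 1162 (4.22%). Within 1 kb the counts were 7 of 35 (20.0%) and 7 of 1162 (0.602%). In wild-type MEFs, before any factor was added, 12 of 35 (34.3%) had a peak within 10 kb against 4.73% of other members. Of the 35, 16 had a peak within 10 kb in at least 1 list and 4 in all 10. RE1 members were within 5 kb of a TSS in 42.9% against 30.7% of the others, a difference of 12.1 points (-2.98 to 28.6). Of the 225 AP-1 members, 0 had a peak of the day 5 wild-type FLAG list within 1 kb, against 14 of 972 members without AP-1, a difference of -1.44 points (-2.40 to 0.336). Within 10 kb, 12 AP-1 members (5.33%) had one against 4.94% of members without AP-1, a difference of 0.395 points (-2.34 to 4.34).

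**Figure D5:**
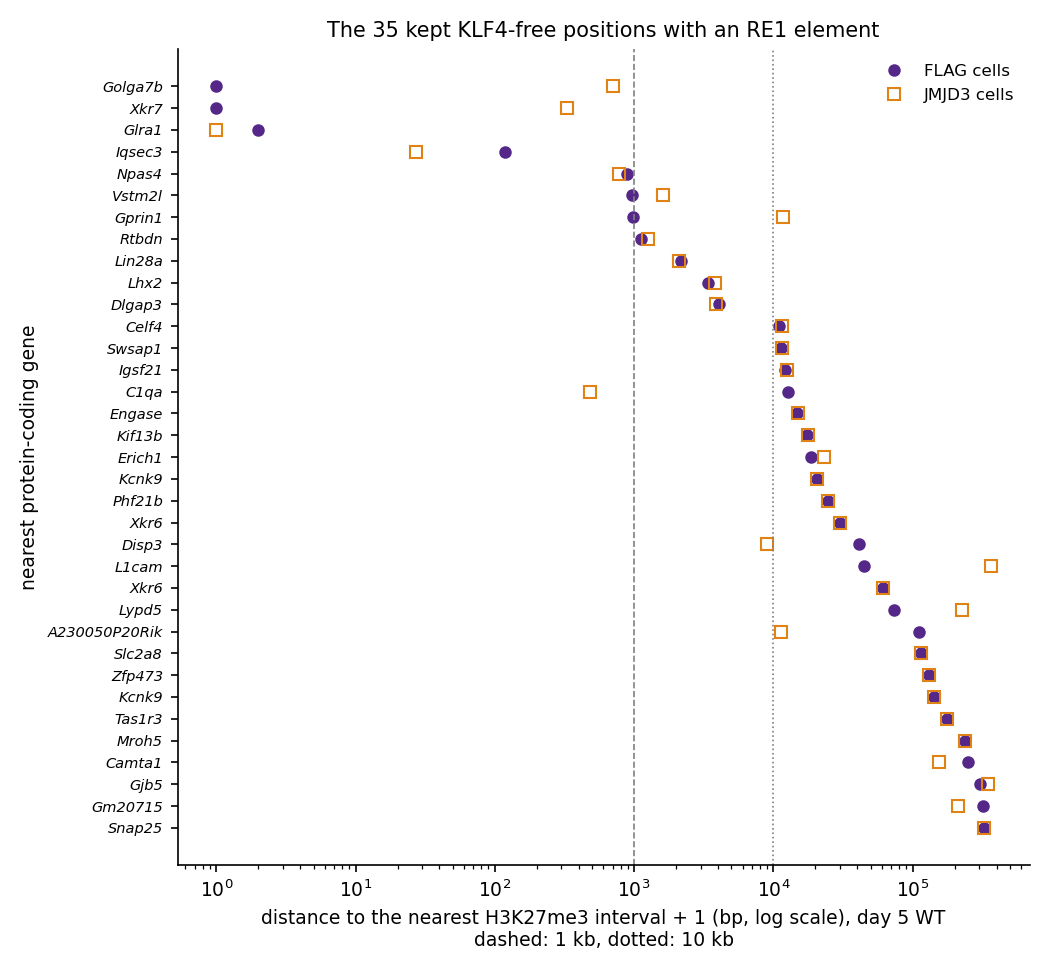
Distance from each of the 35 RE1 members to the nearest H3K27me3 interval in day 5 wild-type cells, plus 1 bp, on a log axis, with the nearest protein-coding gene on the other axis, filled circles for FLAG cells and open squares for JMJD3 cells. In FLAG cells 7 members are within 1 kb and 11 within 10 kb, and the lists differ in both directions, with C1qa at 12705 bp in FLAG and 483 bp in JMJD3 cells and Gprin1 at 979 and 11811 bp.

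The 14 members with a day 5 wild-type FLAG peak within 1 kb were named by the score deposited for that peak, whose scale is not given in the sources used here. The highest was in the coding exon of Insm2, a zinc-finger gene of neuroendocrine cells, 937 bp from its TSS, with a score of 121 and a peak within 1 kb in all 10 lists. Vgf, a neuropeptide precursor, followed with 68.9, then Npas4 with 37.0, Xkr7 with 29.8 and Hpca, a neuronal calcium sensor, with 28.4. Mapk8ip2, a scaffold of JNK signalling, had 23.9, Vstm2l 19.1 and Golga7b 18.7. The lowest were Dpyd at 13.3, Glra1 at 10.6, Iqsec3 at 10.6, Gprin1 at 9.28, Cdhr3 at 7.50 and Diaph3 at 6.90. Of the 14, 7 held RE1 with up to 3 mismatches, 10 with up to 4, and none held AP-1.

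A member lay within 50 kb of a TSS of 1112 of 21938 protein-coding genes (5.07%), and a lost position of 6289 (28.7%). Of these genes 1057 had 1 member, 54 had 2 and 1 had 3. The gene with 3 was Ank3, which encodes the membrane scaffold ankyrin-G, and its nearest member was 14310 bp from a TSS. Among the genes with 2 were Jag1, a Notch ligand with a member 127 bp from its TSS, Tle1, a corepressor at 198 bp, the homeobox gene Meis2 at 249 bp and Hes6, a helix-loop-helix regulator, at 12056 bp. The others named by genome order were Plcl1, Rasal2, Mndal, Galnt12, Medag, Tex26 and Exoc6b, of which Medag and Tex26 share the same pair of positions.

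Across 8 gene lists, 22 of 154 genes (14.3%) had a member within 50 kb and 60 (39.0%) a lost position. Of 13 AP-1 family genes, 4 had a member (30.8%, against 5.07% of all protein-coding genes) and 8 a lost position (61.5%, against 28.7%). Jun and Fosl2, partners in AP-1 dimers, had members 485 and 872 bp from their TSSs. Junb had a member at 1398 bp and a second at 31377 bp in the Rtbdn intron shown above, and Fosb had one at 16599 bp. None of these 5 windows held an AP-1 match.

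Of 25 fibroblast and mesenchymal genes, 6 had a member (24.0%, against 5.07% of all protein-coding genes) and 10 a lost position (40.0%, against 28.7%). Twist1, a regulator of the mesenchymal state, had its member 79 bp from the TSS, while that of its paralogue Twist2 was at 15295 bp and held AP-1. Cdh2, or N-cadherin, had its member at 271 bp with an OCT-SOX match, and Acta2, smooth muscle actin, at 411 bp with AP-1. The members of Col3a1, a fibrillar collagen, and Fn1, fibronectin, were distal at 29810 and 38285 bp. None of these 6 had a day 5 wild-type FLAG H3K27me3 peak within 10 kb, where 5.01% of all members and 5.18% of all positions did.

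Senescence and cell cycle arrest genes had a member in 4 of 10 cases (40.0%, against 5.07% of all protein-coding genes). They had a lost position in 5 (50.0%, against 28.7%). Among those with a member, Il6, a secreted cytokine, had its member at 402 bp, Trp53, which encodes p53, at 1681 bp, and Rb1, the retinoblastoma gene, at 11608 bp. The Trp53 member was 492 bp from a KLF4 midpoint in JMJD3 cells, just outside the limit.

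Pluripotency genes had a member in 2 of 22 cases (9.09%, against 5.07% of all protein-coding genes). They had a lost position in 7 (31.8%, against 28.7%). Lin28a, an RNA-binding protein that blocks let-7 maturation, had its member 1946 bp from the TSS, holding OCT and RE1 and lying 2186 bp from an H3K27me3 peak with a score of 81.8. Zfp42, or REX1, had its member at 42106 bp, with AP-1 and a low-KLF4 position 4 bp away. Krt18, an epithelial keratin, was the 1 of 15 epithelial genes with a member (6.67%, near the 5.07% of all protein-coding genes, with a lost position at 33.3%), at 46017 bp in an Eif4b intron and 469 bp from a KLF4 midpoint. Sox21 was the 1 of 30 neural development genes with a member (3.33%, with a lost position at 20.0%), with its member 6642 bp from the TSS and 2105 bp from an H3K27me3 peak.

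WNT pathway genes had a member in 3 of 25 cases (12%, against 5.07% of all protein-coding genes). They had a lost position in 11 (44.0%, against 28.7%). Tcf7l2, a nuclear effector of the pathway, had its member at 1562 bp, and Axin2, a negative regulator, at 4279 bp in a window with GGATAGGA. The Wnt5b member, near a ligand gene, was at 30348 bp with SOX. Of 14 JNK pathway genes 1 had a member (7.14%, near the 5.07% of all protein-coding genes), which was Map4k4, an upstream kinase, with the member 1619 bp from its TSS with AP-1 and OCT, while 8 (57.1%) had a lost position.

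A few facts of the cells and vectors touch these positions. One member, 1 of 1197, lay on an exon of Kdm6b, where reads from the JMJD3 vector and from the genome cannot be told apart. On chromosome X there were 16 members (1.34%) against 2.2% of lost positions. Of 10 fibroblast marker genes, H3K27me3 covered 1 (Thy1) in wild-type MEFs and 0 in Jmjd3-/- MEFs.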

How the data were processed

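ChIP-seq peak lists of 14 of 20 samples were analysed, and 6 samples (inputs and H3K27ac) were not used here. The authors aligned reads to mm10 with bowtie2 (Bowtie2 2.2.0 in the submitters' processing notes) and called peaks in each library, with MACS2 for KLF4 and JMJD3 and DFilter for H3K27me3. H3K27me3 libraries carried Drosophila chromatin as a spike-in. The deposited H3K27me3 lists hold 1000 bp intervals with a score (from 6.56 to 200.0), whose scale is not given in the sources used here. The deposited KLF4 lists hold intervals, and the deposited JMJD3 lists single bases, with no score, so depth is unknown. The labels call the transfection lentiviral, while the protocol describes pMXs retroviruses.

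The members and the gene lists were chosen with earlier results of these data known. Positions were joined within 400 bp, and TSSs and features were taken from GENCODE M21 basic on GRCm38.p6. Motifs were searched on both strands of 200 bp windows with python 3.11.15, pandas 2.3.3, pysam 0.24.0 and samtools 1.23.1, and figures were drawn with matplotlib 3.10.9. OCT-SOX was CATTGT, 1 free base and the octamer, so it overlaps OCT and SOX. Named genes were all listed genes with a member within 50 kb, up to 12 genes with most members, up to 15 members with a day 5 wild-type FLAG H3K27me3 peak within 1 kb by score, and up to 8 members with AP-1, SOX and OCT. RE1, the repeats, their genes and their printed windows were chosen after the data were seen. Printed windows left out 5 on chromosome 18 or non-coding exon parts. Scripts were tested on simulated data. Alternatives were other joining distances, KLF4 lists, windows, TSS sets and H3K27me3 distances. The position of 1 gene of the senescence list is not reported here.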

Additional observations from a re-analysis of the deposited data

Results flagged for a closer look

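The difference between JMJD3 and FLAG in the number of members with an H3K27me3 peak within 10 kb had opposite signs in some groups. On day 10 it was -15 members in wild-type cells (30 against 45) and 1 in Jmjd3-/- cells (47 against 46). In Jmjd3-/- cells it was -13 on day 5 (48 against 61) and 1 on day 10. Each group was 1 library, the lists differed in length, and the difference between the groups was not tested.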

How the results depend on the processing

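Of 173 alternatives, 144 kept the direction and the side of 0 (or moved a value by less than its interval). The number of members ran from 1144 (joining distance of 1000 bp) to 1242 (KLF4 list of JMJD3 cells alone). The AP-1 difference between kept and lost positions stayed above 0 in every alternative run, from 3.43 points (100 bp windows) to 8.50 (400 bp), and that of RE1 ran from 2.35 to 3.26 points. In 100 bp and 400 bp windows, AP-1 was present in 9.94% and 27.7% of members, SOX in 12% and 30.1%, and OCT in 24.3% and 52.0%, and the exact octamer in 5.43%, since wider windows and looser motifs hold more matches. The share of members near a TSS was 27.9% with a joining distance of 1000 bp, 22.2% for protein-coding TSSs and 19.5% within 1 kb. The share near H3K27me3 in the day 5 wild-type FLAG list was 3.68% within 5 kb, 17.1% within 50 kb and 3.01% for the higher-scoring part of the list, and in the JMJD3 list 12.1% within 50 kb.

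The TSS difference no longer excluded 0 with a joining distance of 1000 bp (-0.442 points), KLF4 interval edges (-2.59), the KLF4 list of JMJD3 cells alone (-2.42) or a limit of 1 kb (-1.53). The H3K27me3 difference with JMJD3 no longer did so with a joining distance of 200 bp (0.901), within 50 kb (1.46), over 5 kb from a TSS (0.493) or without RE1 windows (0.253), nor did RUNX over 5 kb from a TSS (1.78). The OCT difference came to exclude 0 with a joining distance of 200 bp (3.90) and without repeat windows (4.34). The SOX difference changed sign under the same settings (0.316 and 0.0437), and the H3K27me3 difference with FLAG over 5 kb from a TSS (-0.267) and without RE1 windows (-0.643). The cause was not tested. The settings without RE1 windows (up to 4 mismatches) or repeat windows were chosen after seeing the data. No paired analysis was possible because each group was 1 library with no replicate numbers.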
